A study of Mus musculus with 6 samples.

Results

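The genes described here encode chromatin modifiers and subunits of the SWI/SNF remodelling complex. They were chosen by symbol: names starting Kmt, Kdm, Hdac, Sirt, Kat, Setd, Ezh, Tet, Dnmt3, Arid1, Arid2 or Smarca to Smarce, followed by the number or letter of the family. The rule left out Kdm3a, although it carries the name of the lysine demethylases. It also left out 5 katanins, which share only the first letters of the name. Of 25528 genes in the count tables, 86 are members, and 83 of them were among the 12593 genes with enough counts to be tested. Setdb1, Setdb2, Smarcad1 and Smarcal1 were counted as members because their prefix is followed by a letter. The members fall into 8 methyltransferases of the Kmt2, Setd1 and Setd7 type, 12 other SET-domain proteins, 17 lysine demethylases, 11 histone deacetylases, 7 sirtuins, 8 lysine acetyltransferases, 7 genes of DNA methylation and hydroxymethylation, 12 SWI/SNF subunits and 4 other SNF2-type helicases.

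RNA was sequenced from mouse gastric corpus organoids, epithelial structures grown in 3D from the main body of the stomach, where acid is made. In 3 libraries the organoids overexpressed Erbb2, a receptor tyrosine kinase, and in 3 control libraries they had been transduced with an empty vector, with replicates numbered 1 to 3 in both groups. The promoter of the construct, the mouse strain and age, and any further allele are not stated in the labels, and neither is whether the replicates were separate cultures or animals. P-values measure no more than the spread among these 6 libraries, which may be technical.

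Histone methyltransferases and demethylases add and remove methyl groups on lysines of histone tails, acetyltransferases and deacetylases do the same for acetyl groups, and TET and DNMT3 enzymes oxidise and place methyl groups on cytosine. SWI/SNF complexes use the ATPase Smarca4 or Smarca2 to move nucleosomes, and the subunit Arid1a is among the genes often mutated in gastric cancer. Many of these enzymes act in large complexes, so that the abundance of a transcript is not the activity of its enzyme.

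Totals lay between 18735853 and 22767455 counts per library. Erbb2 checked the labels: it stood at 125, 164 and 128 CPM (counts per 1000000 TMM-scaled counts) in control replicates 1, 2 and 3 and at 342, 349 and 285 CPM in the overexpressing libraries. In edgeR its adjusted p was 0.640 in the fit of group alone and 3.55e-05 with the replicate number as a block. Both libraries of replicate 3 stood apart from the other 4. On the first principal component of the 83 members, which held 71.0% of their variance, they lay at 3.09 and 2.72 and the other libraries between -2.21 and -0.77. The epithelial genes Epcam and Krt8 were at 672 to 850 and at 1050 to 1380 CPM, while of the parietal cell markers Atp4a was at 2.87 to 5.41 CPM and Atp4b had 0 counts in each library. Summed levels of 10 fibroblast markers were 0.788 to 1.85 CPM in controls and 1.39 to 2.10 CPM in overexpressing libraries, of 10 immune markers 20.8 to 54.2 and 18.6 to 74.0 CPM, mostly Cd68, and of 8 endothelial markers 3.66 to 6.75 and 2.83 to 15.2 CPM, the highest sum holding 8.95 CPM of Tek in overexpressing replicate 3. The fibroblast gene Dcn was at 0 throughout. Cd68 stood at 52.9 and 72.8 CPM in replicate 3 and at 17.3 to 34.8 CPM elsewhere, and 4 of the 10 immune markers were at 0 in every library. Of 15 tested gastric markers 1, the mucous-cell peptide Tff2, rose with the block (log2 difference 0.91, adjusted p = 0.00167 in edgeR; 1 without the block).

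The promoters of the members were mostly rich in CG dinucleotides, the substrate of the DNA methyltransferases in this group. Promoter windows from RefSeq (GRCm38.p6, 250 bases before to 50 after a start site) matched 71 of the 86 members, and where a gene had several, the window with the most CG was taken. The median was 27.0 CG per 300 bases for 69 tested members, 22.0 for 9662 other tested genes and 4.0 for 17292 genes outside the tested set. At least 10 CG were present in 64 of the 69 (92.8%), against 86.4% of other tested genes and 45.8% of all genes with a window. The tested members below 10 CG were Hdac8, Hdac9, Setd5, Smarca1 and Smarcd2, with 6, 3, 1, 9 and 4. A GC box (GGGCGG, either strand), a motif bound by SP factors, was found in 71.0% of tested members, 67.8% of other tested genes and 37.3% of all genes. The core of many ETS sites (CCGGAAG, either strand) was found in 13.0% of tested members, 19.5% of other tested genes and 9.38% of all genes. Across the 69 members, CG count and level per kb of merged exons had a Spearman correlation of 0.13, over genes that share the same 6 libraries. These matches describe the letters in the windows only. The 250 bases before the start are printed for Smarcd3, the member with the smallest p, for Kmt2c, the member that differed most between replicate 3 and the other numbers, with 56 CG in its window, and for Hdac9, the tested member with the lowest level. All lie on the minus strand and are written 5′ to 3′ with each CG in capitals (chr5:24602003-24602252, chr5:25498784-25499033 and chr12:34528890-34529139, in that order).
Smarcd3: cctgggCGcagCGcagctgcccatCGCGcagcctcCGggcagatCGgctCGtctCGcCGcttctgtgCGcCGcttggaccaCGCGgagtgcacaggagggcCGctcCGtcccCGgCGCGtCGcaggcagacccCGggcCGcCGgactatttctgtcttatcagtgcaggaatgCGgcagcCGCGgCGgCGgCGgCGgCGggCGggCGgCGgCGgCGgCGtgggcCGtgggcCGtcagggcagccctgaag
Kmt2c: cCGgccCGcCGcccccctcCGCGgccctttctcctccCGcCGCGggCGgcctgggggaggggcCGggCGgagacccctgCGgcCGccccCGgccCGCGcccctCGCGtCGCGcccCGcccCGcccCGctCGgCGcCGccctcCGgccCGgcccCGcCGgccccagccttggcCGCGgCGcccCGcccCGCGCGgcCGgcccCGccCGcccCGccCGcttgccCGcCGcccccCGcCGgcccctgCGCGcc
Hdac9: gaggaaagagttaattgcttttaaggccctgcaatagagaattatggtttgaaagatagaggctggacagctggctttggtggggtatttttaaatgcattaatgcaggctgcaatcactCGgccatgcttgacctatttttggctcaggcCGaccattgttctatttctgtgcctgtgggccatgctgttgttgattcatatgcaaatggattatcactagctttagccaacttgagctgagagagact
The printed stretches hold 38 CG for Smarcd3, 48 for Kmt2c and 2 for Hdac9.

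Levels of different genes can be compared only per length, so CPM were divided by the length of the merged exons in kb. On that scale Kmt5a, which monomethylates histone H4, was the highest member at 106 ± 16.2 CPM per kb (SD, n = 3) in controls and 96.0 ± 8.75 in overexpressing organoids. It was followed by the SWI/SNF genes Smarcc2 (58.9 ± 2.90 and 56.4 ± 2.39), Smarca4 (42.4 ± 2.97 and 44.7 ± 2.72) and Smarcc1 (35.2 ± 6.86 and 33.8 ± 2.54). Kmt2e, the class I deacetylases Hdac1, Hdac2 and Hdac3, Arid1a, Smarce1 and the ISWI ATPase Smarca5 had means over all libraries between 25.1 and 32.8 CPM per kb. The median member was at 7.49 CPM per kb, against 5.92 for all genes tested. Medians were low for sirtuins (3.57), class II and IV deacetylases (3.75), DNA methylation and hydroxymethylation genes (3.46) and the other SNF2-type helicases (3.2). Among sirtuins Sirt2, a mainly cytoplasmic deacetylase, was highest at 10.8. At the low end of the tested members were Tet1, which oxidises 5-methylcytosine, at 0.0577 and the class II deacetylase Hdac9 at 0.0530 CPM per kb. The plot of levels by role shows each member as a pair of group means.

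**Figure D1:**
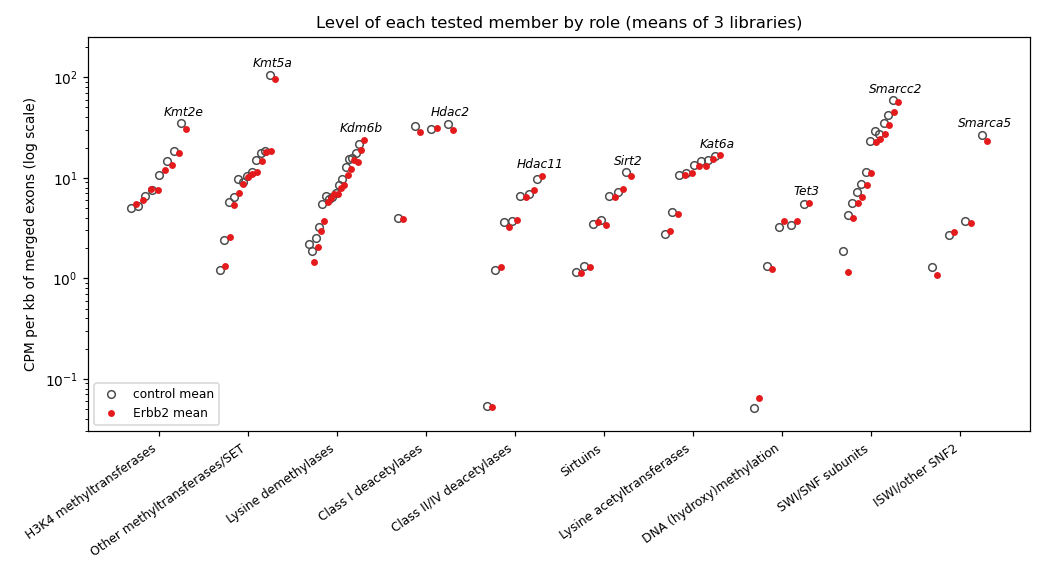
Mean level of each of the 83 tested members in CPM per kb of merged exons (log axis), grouped by role on the horizontal axis. Open circles are control means and red points Erbb2 means (3 libraries each), and the highest member of each role is named. Kmt5a is highest at 106 and 96.0, Hdac9 and Tet1 are lowest, and the circles and points of nearly all members lie close together.

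The members below the filter on low counts were Kdm4d, Dnmt3c and Dnmt3l. Kdm4d, a demethylase known mainly from testis, had 2, 2 and 0 counts in control replicates 1, 2 and 3 and 0, 7 and 0 in the overexpressing libraries. Dnmt3l, a cofactor of germline DNA methylation, had 1 count in control replicate 3 and 0 elsewhere. Dnmt3c, a methyltransferase of male germ cells, had 0 counts in all 6 libraries, which allows up to 3 counts per library, or 0.125 to 0.170 CPM. Of the somatic methyltransferases, Dnmt3a was at 53.7 ± 3.89 CPM in controls and Dnmt3b at 6.75 ± 1.74 CPM. Kdm5d, the Y-linked H3K4 demethylase, was present in every library, at 33.0 to 46.1 CPM.

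Overexpression of Erbb2 was compared with the empty vector for each member. None of the 83 tested members passed the threshold: 0 were higher and 0 lower in edgeR's quasi-likelihood test with Benjamini-Hochberg adjustment over all genes, where the background was 0% of 12593 genes. At an unadjusted p under 0.05, 1 member was lower and 0 were higher (backgrounds 1.16% and 2.17%, or 3.33% in either direction). With the replicate number as a block, again 0 members were higher and 0 lower, against 2.37% and 0.723% of all genes, and at the same unadjusted p 1 was higher and 7 were lower (backgrounds 9.64% and 7.21%). DESeq2 and limma voom also called 0 members, with and without the block. Over all 12593 genes, limma voom called 0 without the block and 311 higher and 106 lower with it. DESeq2 called 28 higher and 6 lower without the block and 370 higher and 96 lower with it. The 389 genes called by edgeR with the block therefore held 0 of the 83 tested members. In cultures of mixed cells, fewer cells of a type and less RNA per cell cannot be told apart.

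The fitted differences were small, and most were bounded closely. With the block the median log2 difference of the members was 0.00, against -0.01 over all genes. Of the members 42 were above 0 (50.6%, background 48.4%) and 41 below. The values ran from -0.67 (Smarcd3) to 0.22 (Kdm5d). The 95% interval lay within 1.5-fold in either direction for 78 of 83 members (94.0%), against 70.2% of all genes tested. The 5 others were Smarcd3, Kdm8, Smarca1, Hdac9 and Tet1, all at or below 10.1 CPM in every library. Without the block 58 of 83 intervals (69.9%, background 50.6%) lay within 1.5-fold and 76 (91.6%, background 75.2%) within 2-fold, and with the block 79 (95.2%, background 85.6%) lay within 2-fold. A fitted value past 1.5-fold was found for 2 members, Smarcd3 and Kdm8 (2.41%, background 7.87% without and 7.89% with the block). Each interval is for its own gene and is not adjusted for their number. Standard errors were derived from the fitted log2 value and the F statistic of the quasi-likelihood test, and intervals from them with a t distribution. The 2 groups did not overlap for 2 members that were higher (background 4.27%) and 4 that were lower (background 4.48%) in overexpressing organoids, together 7.23% of members against 8.75% of all genes. All 3 pairs of libraries went the same way for 11 members that were higher (background 19.6%) and 14 that were lower (background 19.2%), or 30.1% against 38.8% in either direction.

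**Figure D2:**
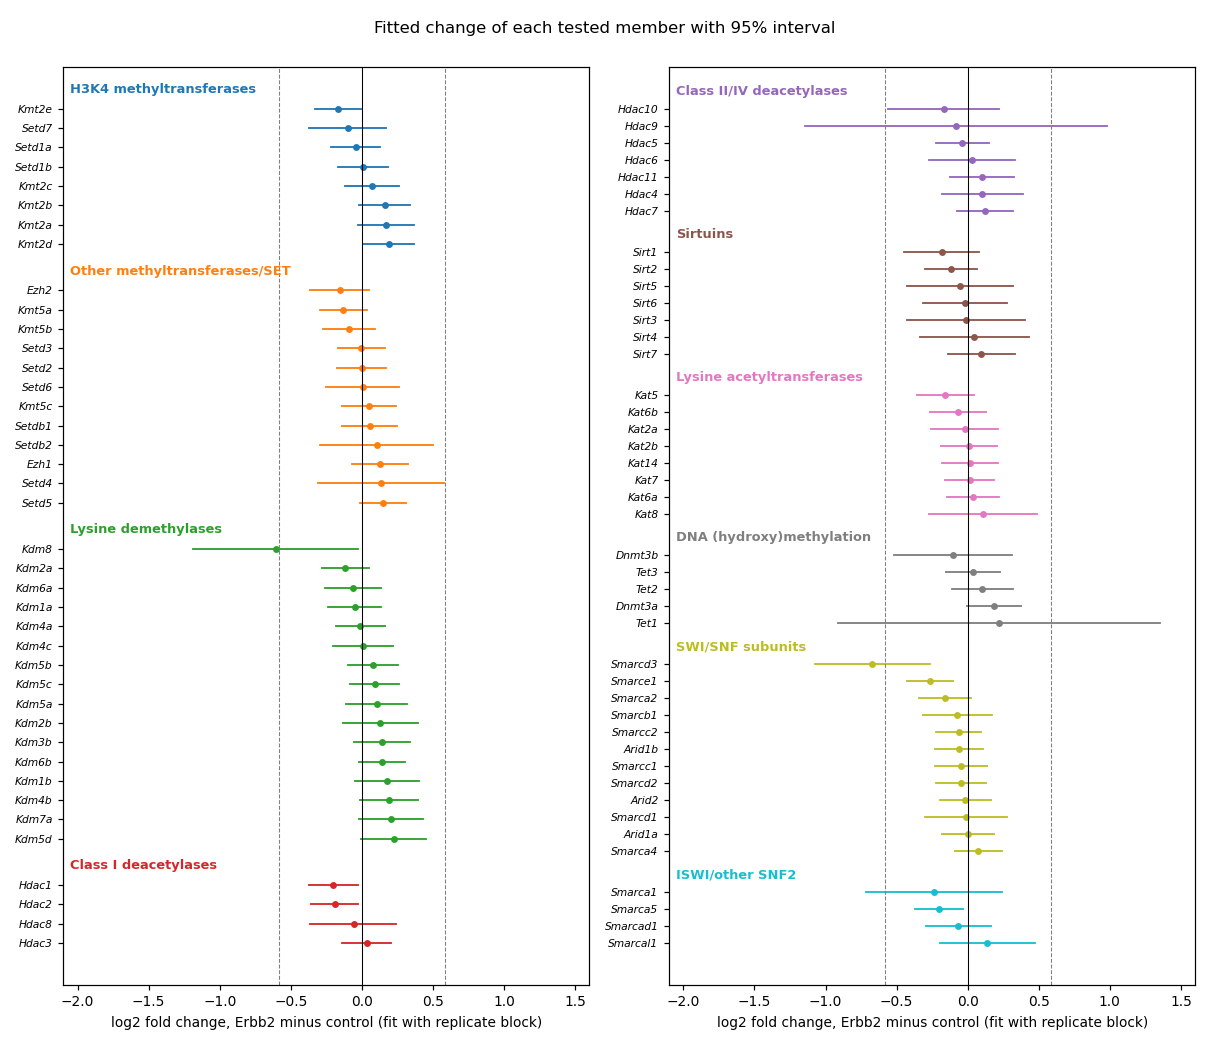
Fitted log2 difference (Erbb2 minus control, from the fit that has the block) of each tested member, as points with 95% intervals, by role. Dashed lines mark 1.5-fold in either direction. Intervals of 78 members lie between the dashed lines, and Smarcd3, Kdm8, Smarca1, Hdac9 and Tet1 reach past them.

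The SWI/SNF subunits held the members with the smallest p-values. Of 12 tested subunits 0 passed the test in either fit, 10 had a fitted value below 0 and their median log2 difference was -0.05 with the block. Over all genes, 48.4% had a fitted value above 0 in that fit. Smarcd3, an alternative BAF60 subunit best known from heart and muscle, was at 9.32, 10.1 and 9.16 CPM in control replicates 1, 2 and 3 and at 6.93, 4.93 and 5.95 CPM in the overexpressing libraries. All 3 overexpressing libraries were below all controls. The log2 difference (fitted, overexpressing minus control) was -0.68 (SE 0.20, unadjusted p = 0.0103 in edgeR) and with the block -0.67 (SE 0.19, adjusted p = 0.0803), a 1.59-fold lower level. The other BAF60 genes, Smarcd2 and Smarcd1, stood at -0.05 and -0.01 with intervals of 0.859 to 1.09-fold and 0.813 to 1.21-fold. Per kb, Smarcd2 was at 23.0, Smarcd1 at 5.59 and Smarcd3 at 1.51 CPM, so that Smarcd3 was the least abundant of these alternatives.

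Smarce1, the BAF57 subunit with an HMG domain, was at 215, 189 and 176 CPM in the controls and at 170, 162 and 149 CPM in the overexpressing libraries. The groups did not overlap, and each pair was lower. Its log2 difference was -0.27 (SE 0.11) without the block and -0.27 (SE 0.08, adjusted p = 0.0890 in edgeR) with it. The catalytic subunit Smarca4 was at 269, 259 and 296 CPM in controls and 270, 295 and 303 CPM with Erbb2, and its fold of 1.05 had an interval of 0.939 to 1.18. The alternative ATPase Smarca2 had a log2 difference of -0.16 (adjusted p = 0.362 in edgeR with the block). Arid1a, which directs the canonical BAF complex to DNA, was at 346, 341 and 241 CPM in controls and 303, 383 and 245 CPM with Erbb2. The groups overlapped fully, and the interval of the fold was 0.882 to 1.14. Arid1b, Arid2, Smarcb1, Smarcc1 and Smarcc2 stood between -0.07 and -0.02 on the log2 scale.

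Leaving out both libraries of replicate 3 changed these calls and those over all genes. With the block and all pairs, 298 of 12593 genes were higher and 91 lower. Without replicate 3, 769 of 12499 genes were higher and 320 lower, and 0 members were higher. With that pair left out and the block kept, 3 members passed as lower (3.61%, background 2.56%): Setd7 (log2 difference -0.30, adjusted p = 0.0181), Smarcd3 (-0.69, 0.0296) and Smarce1 (-0.27, 0.0344), all from edgeR. Setd7, a methyltransferase of H3K4 and of other proteins that is named here after its values were seen, had pair differences of -0.31, -0.30 and 0.31, so that its sign turned in replicate 3. With all pairs its log2 difference was -0.10 (adjusted p = 0.743). With offsets for GC content and length added to the block, 1 member passed as lower (background 1.03%), Smarcd3 (-0.78, adjusted p = 0.0406). Without replicate 1, 0 members passed with the block, where 173 of 12605 genes were higher and 40 lower. Without replicate 2, 0 members passed with the block, where 121 of 12735 genes were higher and 24 lower.

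**Figure D3:**
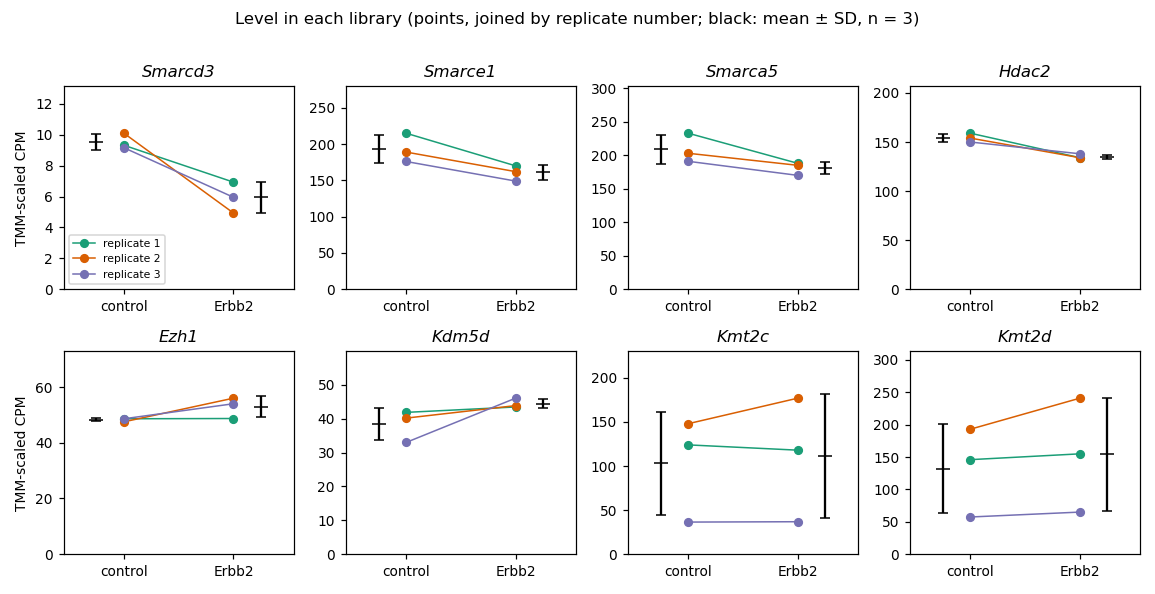
Level in TMM-scaled CPM (axis from 0) of 8 members in each library, with lines joining libraries of the same replicate number and black bars for mean ± SD (n = 3). The first 6 are the members whose groups did not overlap, and Kmt2c and Kmt2d are the members that differed most between replicate numbers. Smarcd3 and Smarce1 are lower with Erbb2 in each pair, while Kmt2c and Kmt2d separate by replicate number instead.

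Among SNF2 helicases outside SWI/SNF, Smarca5, the ISWI ATPase, was at 233, 203 and 191 CPM in controls and 188, 185 and 170 CPM in overexpressing libraries. These groups did not overlap, and its log2 difference was -0.20 (SE 0.08, adjusted p = 0.200 in edgeR with the block). Smarca1, its X-linked paralog, was low, at 7.83, 9.29 and 6.50 CPM against 6.06, 5.32 and 8.24 CPM, with overlapping groups. Smarcad1 and Smarcal1 stood at -0.07 and 0.14.

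Of 4 class I histone deacetylases 0 passed. Hdac2 was at 159, 154 and 150 CPM in controls and 134, 134 and 138 CPM with Erbb2, so that the groups did not overlap and the spread within each was small. Its log2 difference was -0.19 with a standard error of 0.09 without the block and 0.08 with it (adjusted p = 0.227 in edgeR). The difference between groups held 93.3% of the sum of squares of Hdac2. Hdac1, the close paralog that joins the same repressor complexes, was at 105, 104 and 131 CPM in controls and 91.2, 96.1 and 107 CPM with Erbb2. It was lower in each pair, with overlapping groups and a log2 difference of -0.20 (adjusted p = 0.226). Hdac3, the catalytic subunit of the NCOR complexes, had a fold of 1.02 with an interval of 0.909 to 1.15, and Hdac8 one of 0.960.

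Of 7 class II and IV deacetylases 0 passed, and fitted values lay between -0.17 (Hdac10) and 0.12 (Hdac7). Hdac11, the class IV enzyme and the most abundant of them per kb, was at 41.3, 42.2 and 29.1 CPM in controls and 45.0, 38.9 and 35.8 CPM with Erbb2. Among 7 sirtuins 0 passed, with values between -0.18 and 0.10. Sirt1, the nuclear NAD-dependent deacetylase, was at 20.7, 24.4 and 15.4 CPM in controls and 19.1, 22.2 and 12.4 CPM in overexpressing libraries. It was lower in each pair, its groups overlapped, and the log2 difference was -0.18 (adjusted p = 0.497 in edgeR with the block). Sirt2 stood at -0.12, also lower in each pair.

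Of 8 lysine acetyltransferases 0 passed and the median log2 difference was 0.01. Kat5, the catalytic subunit of the TIP60 complex, was at 51.6, 49.3 and 53.6 CPM in controls and 50.1, 44.7 and 44.2 CPM with Erbb2, a log2 difference of -0.16 (adjusted p = 0.433 in edgeR with the block). Its groups overlapped by a single library of each. Kat6a, the most abundant per kb, had a fold of 1.03 with an interval of 0.905 to 1.17, and Kat6b a fold of 0.953. Kat2a, Kat2b, Kat7 and Kat14 lay between -0.02 and 0.02.

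Of 8 methyltransferases of the Kmt2, Setd1 and Setd7 type, most of which act on H3K4, 0 passed. Their median standard error was 0.27 without the block and 0.08 with it. Kmt2c, which methylates H3K4 at enhancers, was at 124, 148 and 36.4 CPM in control replicates 1, 2 and 3 and at 118, 177 and 36.8 CPM in the overexpressing libraries. The libraries separated by replicate number, with both of replicate 3 low, and the groups overlapped. Its log2 difference was 0.11 with a standard error of 0.66 without the block and 0.07 with 0.09 in the block fit. Kmt2d, its paralog in the same type of complex, was at 146, 193 and 57.4 CPM in controls and 155, 241 and 65.0 CPM with Erbb2. It was higher in each pair, with a log2 difference of 0.19 (SE 0.08, unadjusted p = 0.0329 and adjusted p = 0.248 in edgeR with the block), the only member with an unadjusted p under 0.05 that was higher. Kmt2e, a divergent member of the family, was lower in each pair at 401, 425 and 264 against 352, 367 and 246 CPM (log2 difference -0.17, adjusted p = 0.269). Kmt2a and Kmt2b stood at 0.17 and 0.16, and Setd1a and Setd1b at -0.05 and 0.01.

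Of 12 other SET-domain members 0 passed. Ezh2, the catalytic subunit of Polycomb repressive complex 2, was at 64.6, 52.3 and 78.8 CPM in controls and 54.0, 55.5 and 65.3 CPM in overexpressing libraries. The groups overlapped and the log2 difference was -0.15 (SE 0.10, adjusted p = 0.457 in edgeR with the block). Its paralog Ezh1, which predominates in cells that divide little, was at 48.6, 47.5 and 48.6 CPM and 48.7, 56.0 and 54.0 CPM. The groups did not overlap, by a narrow margin, with a log2 difference of 0.13 (adjusted p = 0.530). Setd5 was higher in each pair, by 0.13, 0.17 and 0.15 on the log2 scale, with overlapping groups and an adjusted p of 0.336. Kmt5a had a log2 difference of -0.13 (adjusted p = 0.437).

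Proliferation markers, which are high in dividing cells as Ezh2 is, give these values a setting. Of 17 proliferation markers 1, Ccnb2, fell with the block (log2 difference -0.53, adjusted p = 0.0202 in edgeR) and did not pass without it. With the block 48.4% of all genes stood above 0, while 15 of these markers stood below 0 and their median was -0.28. Their summed level was 986, 698 and 1870 CPM in control replicates 1, 2 and 3 and 914, 801 and 1140 CPM with Erbb2, so that control replicate 3 stood above the rest. All 17 were lower with Erbb2 in pair 3 (median -0.67) and 14 in pair 1 (median -0.17), while 11 were higher in pair 2 (median 0.17). The part of proliferation in the values of Ezh2, Hdac1, Smarce1 or Smarca5 was not tested.

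Of 16 tested lysine demethylases 0 passed, 11 stood above 0 (as did 48.4% of all genes) and the median was 0.10. Kdm8, a JmjC protein, was at 6.63, 3.15 and 6.07 CPM in controls and 2.62, 3.34 and 4.58 CPM with Erbb2. Control replicate 2 was as low as the overexpressing libraries, and the pair differences were -1.33, 0.08 and -0.40. The log2 difference of -0.61 (SE 0.27, adjusted p = 0.273 in edgeR with the block) therefore rested on replicates 1 and 3. Kdm5d was at 41.9, 40.2 and 33.0 CPM in controls and 43.5, 43.9 and 46.1 CPM with Erbb2. The groups did not overlap, with a log2 difference of 0.22 (SE 0.11, adjusted p = 0.312), and how reads shared with its X-linked paralog Kdm5c were counted is not known. The pair differences of Kdm5d were 0.053, 0.127 and 0.485, and without replicate 3 its log2 difference with the block was 0.096. Kdm6b, an H3K27 demethylase known to respond to signals and the most abundant of the demethylases per kb, was at 161, 155 and 135 CPM against 175, 166 and 156 CPM. It was higher in each pair, with an adjusted p of 0.386. Kdm6a, its X-linked paralog, stood at -0.06.

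Among the genes of DNA methylation, Dnmt3a was at 56.5, 55.3 and 49.3 CPM in controls and 66.2, 66.4 and 51.5 CPM with Erbb2. It was higher in each pair, while overexpressing replicate 3 lay within the control range, and the log2 difference was 0.19 (SE 0.09, adjusted p = 0.313 in edgeR with the block). Tet2 was at 71.0, 56.2 and 45.0 CPM against 77.1, 69.8 and 41.3 CPM, with overlapping groups and an interval of 0.928 to 1.25-fold. Tet3, the most abundant TET gene per kb, had a fold of 1.03 with an interval of 0.901 to 1.17. For Tet1, at 0.567 to 1.70 CPM, the interval of 0.530 to 2.55-fold does not bound a 2-fold increase at this depth.

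The balance between paralogs, measured as the share of the CPM per kb of a pair, was compared for 10 pairs. With 3 libraries against 3 the smallest p an exact permutation test allows is 0.1. Smarca4 held 85.3 ± 3.98% of the summed level of both SWI/SNF ATPases in controls and 87.4 ± 2.14% in overexpressing organoids (exact two-sided permutation p = 0.40, n = 3). Arid1a held 75.6 ± 0.717% and 76.3 ± 2.38% of the pair with Arid1b, and Dnmt3a 71.1 ± 5.95% and 74.7 ± 3.32% of the pair with Dnmt3b. Ezh2 held 59.7, 55.1 and 64.4% of the pair with Ezh1 in control replicates 1, 2 and 3 and 55.3, 52.5 and 57.4% with Erbb2. It was lower in each pair of libraries, with overlapping groups (exact permutation p = 0.30). The Kdm6a share of the pair with Kdm6b was 24.8, 21.9 and 23.4% in controls and 21.7, 21.9 and 19.3% with Erbb2 (exact permutation p = 0.10). Adjusted over the 10 pairs by the Benjamini-Hochberg method, exact permutation p-values lay between 0.80 and 1.

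**Figure D4:**
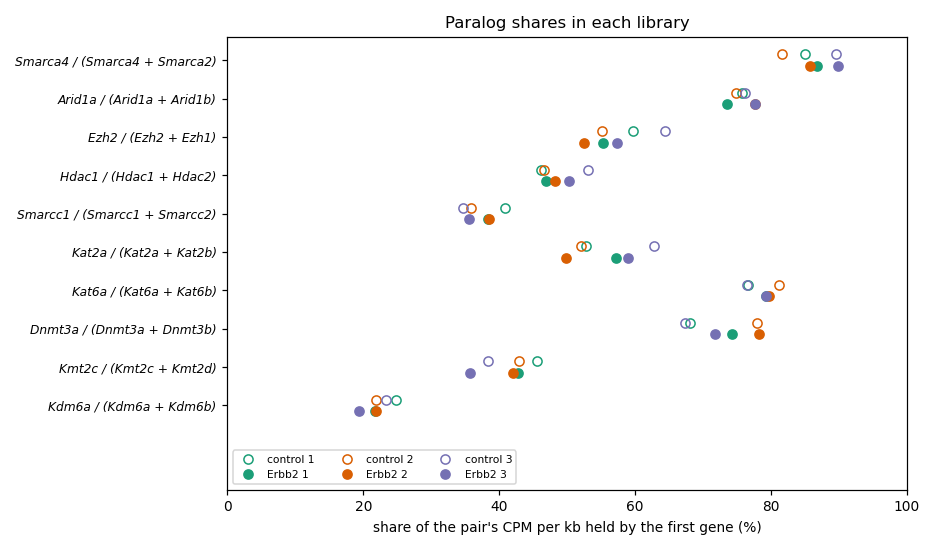
Share in percent of the summed CPM per kb of each paralog pair that the first named gene holds, in each library. Open circles are controls and filled circles Erbb2 libraries, coloured by replicate number. The Smarca4 share lies between 81.6 and 89.8% and the Kdm6a share between 19.3 and 24.8%, and in most pairs the groups overlap.

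Variation between replicate numbers was larger than that between control and overexpressing groups for most members. The replicate number held a median of 70.6% of the sum of squares of log2 CPM of a member and the group 6.0%. Over all genes tested the medians were 64.5% and 10.4%. These shares are not on an equal footing, since there are 3 numbers and 2 groups. Both libraries of replicate 3 were below the other 4 for 30 of 83 members (36.1%, background 20.1%) and above them for 11 (13.3%, background 18.7%). Of the 8 methyltransferases of the Kmt2, Setd1 and Setd7 type, 6 were below: Kmt2c was 3.83-fold lower in replicate 3, Kmt2d 2.95-fold, Kmt2a 2.35-fold, Setd1b 1.77-fold, Kmt2e 1.51-fold and Kmt2b 1.28-fold. Tet3 was 2.03-fold and Kat6a 1.73-fold lower, and Arid1a, Arid1b and Arid2 1.41-fold, 1.52-fold and 1.54-fold. Higher in replicate 3 were Kmt5c (0.45 on the log2 scale), Hdac3 (0.46), Sirt7 (0.40) and Ezh2 (0.35).

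The members that were low in replicate 3 were mostly those with a large length of merged exons. This length covers all annotated transcripts of a gene and is not that of a single transcript. Across the 83 members, the difference of replicate 3 from replicates 1 and 2 had a Spearman correlation of -0.65 with the length of the merged exons, against -0.15 over 12572 tested genes with a length, all from the same 6 libraries. The 28 members of at least 10000 bases had a median difference of -0.49 (log2), and all 1216 tested genes of that length -0.22. Among 19 members of 2000 to 5000 bases the median was 0.13, against 0.04 over all genes of that length. Kmt2c, with 20291 bases, was at -1.94, and 1.23% of the 1216 long genes were lower still. Not all long members fell: Setd5, with 18347 bases, was at -0.11 and Kdm5b, with 16555 bases, at 0.19. Mitochondrial transcripts held 8.05% and 6.33% of counts in replicate 3 and 8.01% to 11.1% in the other libraries. Marker genes also differed in replicate 3. Of 17 proliferation markers 14 were above the other 4 libraries in both, Ccnb2 by 2.56-fold, and of 15 tested gastric markers 5 were above and 2 below. Gif was 16.6-fold, Gkn1 10.1-fold, Gkn3 5.91-fold, Cldn18 2.18-fold, Krt18 1.27-fold and the immune marker Cd68 2.77-fold higher. The 2 gastric markers below were Pga5, 23.9-fold lower at up to 3.15 CPM, and Cdh1, 1.11-fold lower. Tff1 and Tff2 were 1.62-fold and 1.69-fold lower on average, without both libraries lying below the other 4. The part of length, RNA quality, proliferation or cell makeup in the differences of the members was not tested. The difference between groups with the block had a correlation of 0.27 with length across the members and 0.11 over all tested genes. Its median over the long members was 0.05, against 0.04 over all long genes.

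**Figure D5:**
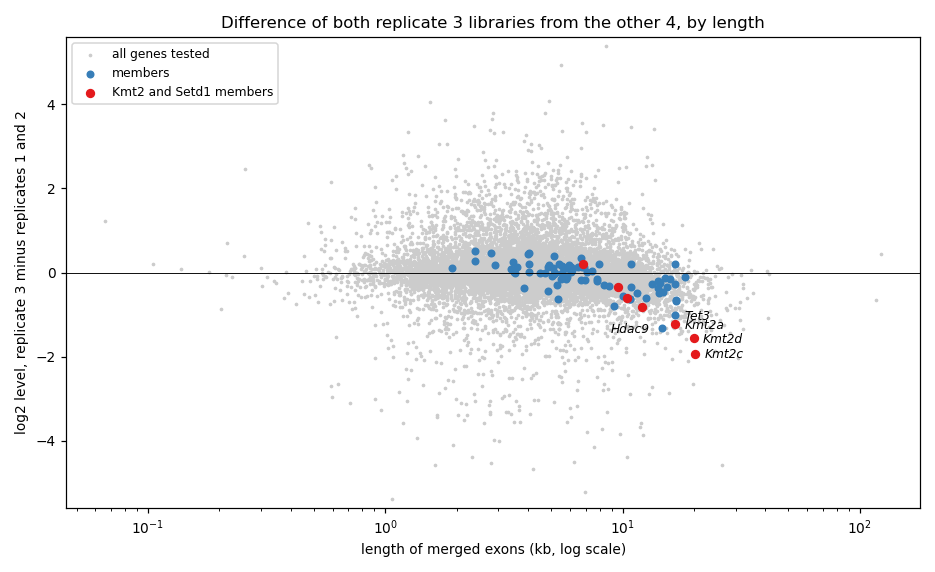
Difference in log2 level between both replicate 3 libraries and the other 4 (vertical axis) against the length of the merged exons in kb (log axis). Grey points are all genes tested, blue points members, and red points the Kmt2 and Setd1 members. Kmt2c, Kmt2d, Kmt2a, Hdac9 and Tet3 lie below -1 among the longest members, and members of 2000 to 5000 bases lie between -0.45 and 0.52.

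Partners of the members in their complexes were also compared, from lists of genes named by complex. Of 17 tested further SWI/SNF subunits 0 passed, with 12 below 0, while 48.4% of all genes stood above 0. Bcl11a, a lineage-restricted subunit, was at -0.36 (adjusted p = 0.218 in edgeR with the block). Of 10 Polycomb partners 0 passed, with Jarid2, which guides the complex to its targets, at -0.29 (adjusted p = 0.156), and of 11 COMPASS partners 0 passed, with Dpy30 at -0.28 (adjusted p = 0.196). Of 17 partners of deacetylases 1 fell with the block (background 0.723% of all genes), 0 without it (background 0%). It was the only call in the partner lists. The gene was Chd3, an ATPase of the NuRD complex that holds Hdac1 and Hdac2, at 431, 413 and 335 CPM in controls and 333, 344 and 279 CPM with Erbb2 (log2 difference -0.30, SE 0.07, adjusted p = 0.0487 in edgeR with the block). It was lower in each pair, and control replicate 3 lay within the range of the overexpressing libraries. Without replicate 3, Jarid2 also passed as lower with the block (log2 difference -0.39, adjusted p = 0.0150). Chd3 no longer passed without replicate 1 (-0.27, adjusted p = 0.227), without replicate 2 (-0.31, 0.318) or with relative log expression scaling (-0.30, 0.0576), and passed without replicate 3 (-0.31, 0.00890). Of 17 other acetyltransferases and partners, 13 other methyltransferases and 6 genes of methylation maintenance 0 passed; Supt20 stood at -0.15, Smyd3 at 0.40 (adjusted p = 0.205) and Mbd4 at -0.27.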

How the data were processed

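Polyadenylated RNA of 6 libraries was sequenced on an Illumina instrument, per the labels' protocols. The deposited tables, 1 per library, hold unnormalized counts of reads for each Ensembl gene ID (column of match counts, per the file headers). The submitters' processing notes name STAR, featureCounts and the build GRCm39. Not given in the sources used here are their versions, the annotation and the strand setting, so that antisense or overlapping genes and close paralogs cannot be fully told apart. Groups and replicate numbers came from the titles.

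Symbols matched 25424 of 25528 IDs. The 104 IDs without a symbol held 0.120% to 0.219% of counts. Members and lists were chosen with earlier results of these data known. Counts were filtered with filterByExpr (minimum count 10), scaled by TMM and tested over all genes with edgeR 4.0.16 in R 4.3.3 (quasi-likelihood, two-sided, Benjamini-Hochberg threshold 0.05), without a replicate term. A second fit, with replicate number as a blocking term, is given beside it, because same-numbered libraries deviated together (correlations of deviations from the group means 0.299, 0.619 and 0.675 for numbers 1 to 3). The labels do not state such a pairing. Alternatives used limma 3.58.1 (voom), DESeq2 1.42.0, other scalings and filters, libraries left out, and offsets for GC content and length, the last chosen after seeing the data. The scripts were tested on simulated data that held no difference between replicate numbers. How the fits perform where such a difference is present was not simulated. Libraries of a group differed by chi-square values of 33.5 to 126 per degree of freedom, and no tables were identical. Same-numbered control and overexpressing libraries differed by less, at 20, 22.6 and 30.4 for numbers 1 to 3.

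Merged exon length, GC content and promoter windows came from GRCm38 annotation, an earlier build than that of the files, so the printed coordinates belong to GRCm38.p6 only. The rule for named genes took, in each role, the 2 members with the smallest p in the block fit and the highest level per kb, 8 fixed genes, members below the filter, and called or smallest-p partners. Other members named were chosen after their values were seen.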

Additional observations from a re-analysis of the deposited data

How the results depend on the processing

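The counts of members higher and lower remained 0 in edgeR under other scalings, filters, the earlier form of the fit, without the 4 members whose prefix is followed by a letter, with the replicate block, and in DESeq2 and limma voom, apart from 2 settings. Without the block, the main fit, the other scalings and filters, the earlier form of the fit and limma voom called 0 of all genes tested. The fits without the block that left out a library also called 0, apart from 1 higher gene without control replicate 3. Wherever 0 genes were called, a count of 0 members was fixed in advance and does not measure stability. The same holds for the main fit counted without the 4 members whose prefix is followed by a letter. With GC and length offsets and the replicate block 1 member was lower, and with libraries left out the count of lower members ran from 0 to 3, reaching 3 with the block without replicate 3. The cause was not tested. The same offsets turned the sign of the log2 fold change of Hdac7 (-0.001), Tet3 (-0.048), Arid1a (-0.102) and Smarca4 (-0.01), and moved the median of all genes to -0.041 and of the members to -0.048. Without the block, leaving out each library in turn, signs turned within these ranges: Kat6b -0.28 to 0.106, Arid1a -0.175 to 0.15, Kmt2c -0.411 to 0.523, Kmt2d -0.266 to 0.59, Kat6a -0.238 to 0.207, Tet3 -0.268 to 0.265, Tet2 -0.049 to 0.356, Hdac11 -0.063 to 0.18 and Sirt1 -0.356 to 0.036. Within the replicate block, signs turned for Kat6b (0.037) without replicate 1, for Smarca1 (0.009), Arid1a (-0.071) and Kmt2c (-0.02) without replicate 2, and for Kat6a (-0.047), Tet3 (-0.021) and Arid1a (-0.004) without replicate 3. The difference in paralog share ran from -1.33 to 2.05 percentage points for Hdac1, -0.96 to 2.14 for Smarcc1, -2.45 to 2.96 for Kat2a and -4.03 to 0.13 for Kmt2c. The replicate block changed the call of 0 members, of 1 partner gene, Chd3 (adjusted p = 0.0487 in edgeR), and of Erbb2 (3.55e-05), Tff2 (0.00167) and Ccnb2 (0.0202), which pass with the block only. Depth limited Tet1 and Hdac9 most: their intervals do not bound a 2-fold increase of Tet1 or a 2-fold decrease of Hdac9.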
